A study of Mus musculus with 6 samples.

Results

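The transcripts of 35 genes of blood clotting and clot lysis were examined in the livers of 3 WT and 3 Vps15LKO mice. The genes were taken as a named set: the clotting factors, the vitamin K cycle, the contact system, fibrinogen, the plasminogen system, cell-surface anticoagulants and the receptors that clotting proteases cleave. All 35 were found among the 56305 genes of the table, and all 35 passed the filter on low values. Vps15LKO mice were AlbCre+;Vps15 f/f, in which Cre recombinase under the albumin promoter, active in hepatocytes, deletes both floxed copies of Vps15 (gene symbol Pik3r4), the regulatory subunit of class 3 PI3K. The WT label and the methods name control mice without giving their alleles. All mice were males of 5 weeks, fed ad libitum and killed at ZT6, that is 6 h after lights on, and each gave 1 liver and 1 poly(A) RNA library. The deletion is chronic, and it is aimed at cells with an active albumin promoter, so a whole liver also holds cells outside its reach.

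Clotting is a cascade in which inactive proteases made by hepatocytes and released into blood activate one another on a membrane surface. It ends in thrombin, which cuts fibrinogen to fibrin. Several of the proteases need vitamin K, which serves the enzyme that adds a carboxyl group to their glutamates so that they can bind calcium and membranes. Plasmin, made from plasminogen by the activators tPA and uPA, dissolves the clot. The hepatocyte supplies most of the soluble factors, whereas factor VIII, von Willebrand factor, thrombomodulin, the protein C receptor, the plasminogen activators and the thrombin receptors are usually products of endothelial, stromal or blood-derived cells. By that textbook source, 22 of the genes were classed as hepatocyte products and 13 as products of other cells.

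The 2 classes moved in opposite directions. Of the 22 genes that hepatocytes usually make, 20 were lower in Vps15LKO liver, 1 (Pros1) was higher and 1 (Cpb2) was not called. Among the 13 genes of other cells, 11 were higher, 1 (F8) was lower and 1 (Tfpi) was not called. A gene was called when the limma test on log2(normalized count + 1) gave a Benjamini-Hochberg adjusted p under 0.05 over all 15430 tested genes and a fold of at least 1.2. By the same rule 33.0% of all tested genes were called lower and 33.5% higher. The median log2 fold change was -1.55 for the hepatocyte genes and 1.69 for the others, beside -0.02 for all tested genes. Of the 13 others, 4 passed the filter only through the Vps15LKO livers, and the median was 1.03 over the remaining 9 and 0.77 over the 7 that reached 20 normalized counts in all 6 livers. WT and Vps15LKO livers did not overlap for 34 of the 35 genes, beside 73.2% of all tested genes, the exception being Cpb2. In whole liver, fewer cells of a type and less RNA per cell cannot be told apart.

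**Figure D1:**
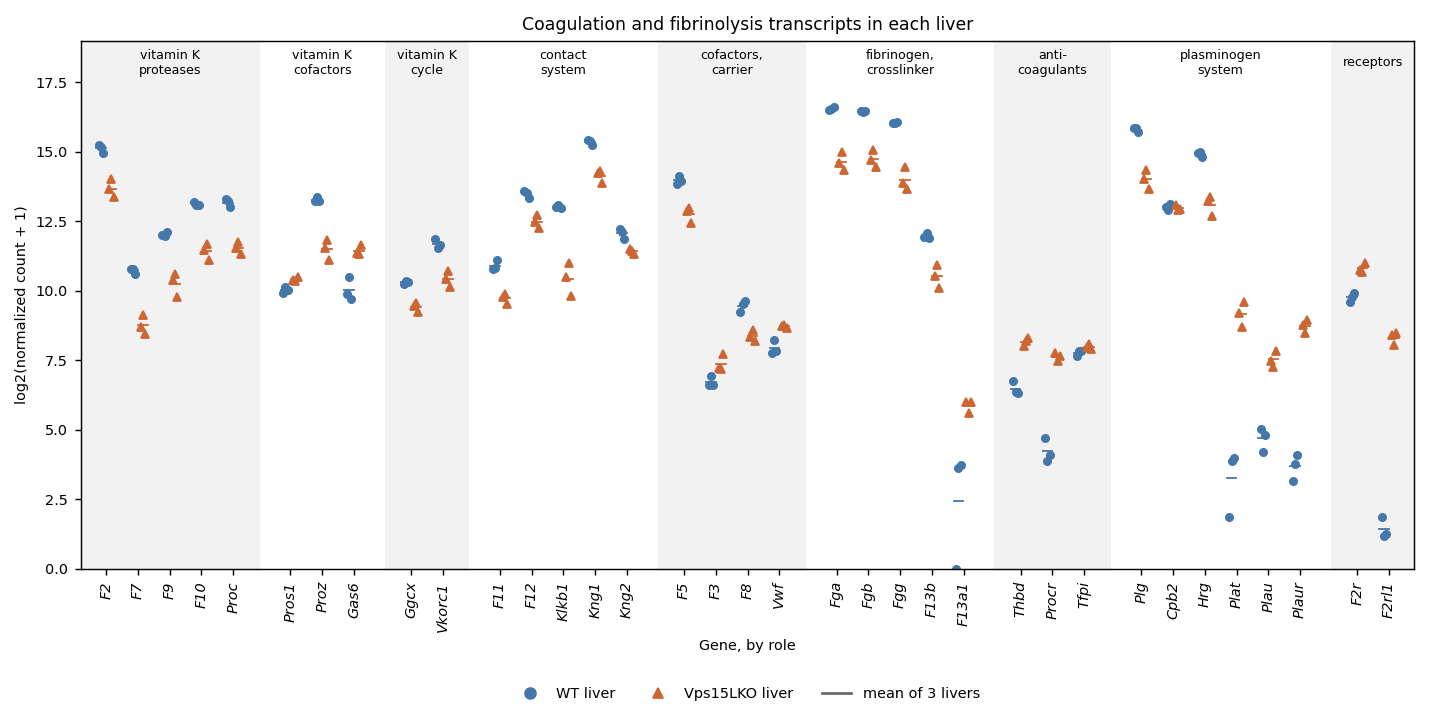
Level of each of the 35 transcripts in each liver, as log2(normalized count + 1) on the vertical axis, with the genes grouped by role along the horizontal axis. Circles are the 3 WT livers, triangles the 3 Vps15LKO livers and short lines the means; the 2 groups overlap only for Cpb2, and the genes with the lowest WT values, such as F2rl1, Plat and Plaur, are those furthest above WT in Vps15LKO livers.

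The scale on which the livers are compared bears on these counts. The livers gave between 16137093 and 18110223 reads on genes, yet the authors divided counts by size factors of 0.742 to 0.801 for WT and of 1.23 to 1.41 for Vps15LKO livers. Scaling every library to the same total of reads instead moved the median of all genes up by 0.72 (log2). On that scale 18 of the 22 hepatocyte genes were lower and 2 higher, with a median of -0.82, and 12 of the 13 others were higher and 1 lower, with a median of 2.41. The background there was 11.1% of genes lower and 66.7% higher. Quantile normalization raised the log2 fold change of the 5% of genes with the highest mean by a median of 0.72. It left 14 hepatocyte genes lower and 2 higher, and 10 of the others higher and 1 lower, where 37.0% of all genes were lower and 31.2% higher. Directions below follow the authors' scale, and those of the 35 genes whose sign turns on another scale (Kng1, Kng2 and Cpb2) are named with that value.

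**Figure D2:**
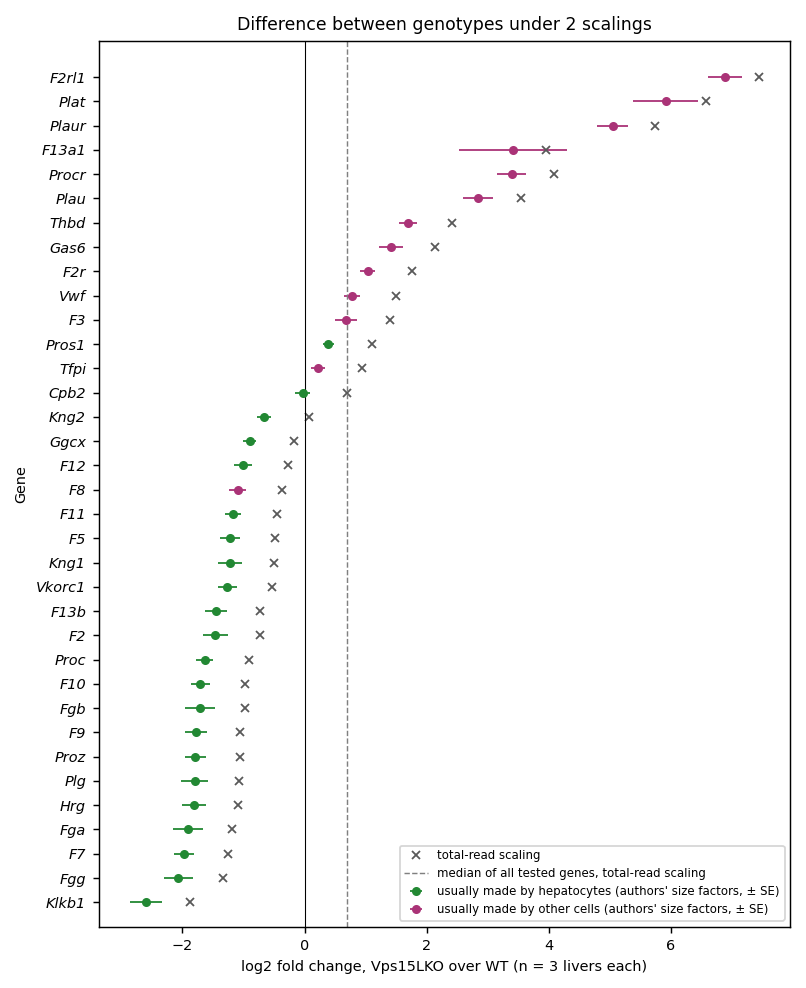
Log2 fold change, Vps15LKO over WT, of each of the 35 genes (n = 3 livers each). Filled circles with bars are the estimate ± SE on the authors' scale, coloured by the cell that usually makes the product; crosses are the same genes after scaling to total reads, and the dashed line is the median of all tested genes on that second scale. Every cross lies to the right of its circle, and Kng2 and Cpb2 have crosses above 0 and circles below 0.

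Sequence was read for the 27 of the 35 genes with an entry among RefSeq promoters (GRCm38.p6), 19 of the hepatocyte class and 8 of the others. F2rl1, Kng1, Plg, Proc, Plat, Thbd, Plau and Vwf had no entry. In the 250 bases before the start, on both strands, the core letters of the hepatocyte factor HNF1, GTTAAT, occurred in 4 of the 27 genes (Proz, Fga, Fgb and F13b), all of the hepatocyte class, and in 7.49% of all 27025 genes. All 4 were called lower, and so were 13 of the 15 hepatocyte genes whose window lacked them. The 4 windows are shown as examples, with that of Cpb2, which was chosen because it was not called. Each is written 5′ to 3′ on the strand of the gene, with GTTAAT or its reverse complement in capitals.
Fgb (chr3:83049864-83050113, minus strand): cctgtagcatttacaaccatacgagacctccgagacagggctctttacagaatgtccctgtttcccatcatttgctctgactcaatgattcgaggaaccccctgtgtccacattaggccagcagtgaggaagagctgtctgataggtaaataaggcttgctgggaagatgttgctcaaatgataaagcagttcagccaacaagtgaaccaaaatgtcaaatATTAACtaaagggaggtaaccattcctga
F13b (chr1:139501457-139501701, plus strand): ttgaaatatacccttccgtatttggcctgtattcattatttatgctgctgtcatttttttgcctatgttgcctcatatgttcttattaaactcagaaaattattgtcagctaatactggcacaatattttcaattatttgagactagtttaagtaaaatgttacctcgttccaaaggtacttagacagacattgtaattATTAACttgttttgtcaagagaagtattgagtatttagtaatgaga
Proz (chr8:13060658-13060907, plus strand): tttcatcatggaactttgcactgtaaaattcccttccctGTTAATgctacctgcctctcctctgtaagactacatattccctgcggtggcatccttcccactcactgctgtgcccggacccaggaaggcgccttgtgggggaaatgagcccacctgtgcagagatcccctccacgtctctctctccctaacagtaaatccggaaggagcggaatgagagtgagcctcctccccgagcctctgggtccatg
Fga (chr3:83026098-83026127, plus strand): ccaagggtgatgATTAACctcctgccggtt
Cpb2 (chr14:75242037-75242286, plus strand): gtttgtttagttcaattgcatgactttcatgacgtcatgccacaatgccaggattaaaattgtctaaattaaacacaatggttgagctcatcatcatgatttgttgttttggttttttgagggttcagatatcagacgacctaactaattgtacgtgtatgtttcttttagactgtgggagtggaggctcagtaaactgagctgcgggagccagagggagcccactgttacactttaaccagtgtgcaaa
The match began 29 bases before the RefSeq start in Fgb, 43 in Fga, 51 in F13b and 211 in Proz. For Fga only the 30 bases around it are shown, since GENCODE places them inside the gene, and for the same reason the last 5 bases before the RefSeq start of F13b are left out. The letters TTNNGNAA of C/EBP factors were found in 15 of the 27 genes, 11 of 19 and 4 of 8 by class, and in 40.3% of all genes. The STAT letters TTCNNNGAA were in 4 (F9, Pros1, Fga and Fgb) and in 8.13% of all genes. CAAAGTCCA of HNF4 and the clock E-box CACGTG, found in 0.451% and 6.86% of all genes, were in none of the 27 windows.

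Thrombin and the other vitamin K-dependent proteases were lower as a group: F2, F7, F9, F10 and Proc all fell. F2, the precursor of thrombin, stood at 38743, 37376 and 32193 normalized counts in WT livers and at 12911, 16444 and 10555 in Vps15LKO livers. The lowest WT liver was thus above the highest Vps15LKO liver, and the log2 fold change was -1.46 ± 0.20 (SE, limma, adjusted p = 0.00027), though after quantile normalization it was -0.24 and was not called. F7, which binds tissue factor to start clotting, went from 1764, 1775 and 1562 to 418, 559 and 344 normalized counts, a 3.86-fold lower mean (limma, adjusted p = 1.8e-05). F9, the factor missing in haemophilia B, fell 3.34-fold, F10, which cuts prothrombin, 3.22-fold, and Proc, the anticoagulant protease protein C, 3.09-fold. F2 fell 2.71-fold, so the anticoagulant protease lay within the range of the 4 procoagulant ones. F7, F10 and Proz lie next to each other on chromosome 8 (chr8:13026034-13035809, chr8:13037308-13056676 and chr8:13060914-13076026, GRCm38, all on the plus strand), and their log2 fold changes were -1.97, -1.71 and -1.79.

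The vitamin K-dependent proteins that are not proteases did not move as one. Proz, the cofactor of an inhibitor of factor Xa, stood at 9547, 10562 and 9715 normalized counts in WT and at 2977, 3616 and 2208 in Vps15LKO livers (log2 fold change -1.79 ± 0.17, limma, adjusted p = 3.8e-05). Pros1, protein S, the cofactor of activated protein C, was the only hepatocyte gene called higher: 964, 1109 and 1047 normalized counts in WT and 1336, 1306 and 1435 in Vps15LKO livers. Every Vps15LKO liver exceeded every WT liver, by 1.31-fold on the means (log2 fold change 0.39 ± 0.09, limma, adjusted p = 0.0052). Endothelial cells also make protein S. Gas6, the protein S homologue that activates the Tyro3, Axl and Mertk receptors, rose 2.60-fold, from 943, 1449 and 837 to 2638, 2545 and 3200 normalized counts (limma, adjusted p = 0.00027). The enzymes of the vitamin K cycle were lower. Vkorc1, the reductase that warfarin blocks, stood at 3750, 2984 and 3231 normalized counts in WT and at 1377, 1675 and 1122 in Vps15LKO livers (log2 fold change -1.27 ± 0.15, limma, adjusted p = 0.00013). Ggcx, the carboxylase itself, fell 1.86-fold (log2 fold change -0.90 ± 0.11), but with total-read scaling its log2 fold change was -0.17 and it was not called. Vkorc1 shares 401 exonic bases on its own strand with the gene model Gm21974, whose mean went from 3333 to 1389 normalized counts, so reads could have been divided between them.

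All 5 genes of the contact system, which starts clotting on charged surfaces and releases bradykinin, were lower. Klkb1, plasma prekallikrein, which cuts kininogen, showed the largest fall of the 35 genes, from 8361, 8772 and 8003 to 1439, 2063 and 888 normalized counts. Its mean was 5.73-fold lower (log2 fold change -2.60 ± 0.26, limma, adjusted p = 4.3e-05), and it moved from rank 15 to rank 22 among the 35 genes in normalized counts per kilobase of exon. Of its 5249 exonic bases, 2267 are shared with the same-strand model Gm45753, which went from a mean of 9015 to 1893, so reads could have been divided between them and the counts and ranks of Klkb1 carry that uncertainty. F11, next to Klkb1 on chromosome 8 and its close relative in sequence, fell less: 1744, 1816 and 2207 normalized counts in WT and 865, 955 and 737 in Vps15LKO livers, 2.26-fold. F12, which activates both, fell 1.99-fold (limma, adjusted p = 0.00041) and was not called after quantile normalization (log2 fold change -0.07). Kng1, high-molecular-weight kininogen and the source of bradykinin, stood at 44468, 42422 and 39292 normalized counts in WT and at 19123, 20438 and 14906 in Vps15LKO livers. Its paralogue Kng2 fell only 1.59-fold, from 4833, 4476 and 3729 to 2873, 2746 and 2589. The log2 fold change of Kng2 was 0.07 with total-read scaling, and that of Kng1 was 0.05 after quantile normalization, so the sign of each turned on one scale, and neither was called after quantile normalization. The copies are alike in sequence, and how reads matching both were counted is not given in the sources used here.

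Cofactors and the carrier of factor VIII did not move as one. F5, factor V, the cofactor of factor Xa, fell 2.31-fold, from 14702, 17777 and 15908 to 7420, 7980 and 5570 normalized counts (log2 fold change -1.22 ± 0.17, limma, adjusted p = 0.00024), but its log2 fold change after quantile normalization was -0.17 and was not called. F8, factor VIII, which in liver comes from sinusoidal endothelial cells, was the only gene of the non-hepatocyte class that fell: 597, 741 and 785 normalized counts in WT and 322, 380 and 288 in Vps15LKO livers (log2 fold change -1.10 ± 0.14, limma, adjusted p = 0.00018). Vwf, its carrier in plasma, also endothelial, rose from 216, 299 and 226 to 423, 430 and 404 (log2 fold change 0.77 ± 0.14, limma, adjusted p = 0.00098). The carrier and its cargo therefore moved in opposite directions, and did so on each scale tried. Endothelial markers were mixed too, with 6 of 10 lower and 3 higher on the authors' scale and 0 lower and 5 higher with total-read scaling. Of all tested genes 33.0% were lower and 33.5% higher on the authors' scale, and 11.1% and 66.7% with total-read scaling. Among the endothelial markers Oit3 and Ptprb fell most (log2 fold changes -1.02 and -0.98) and Lyve1 and Pecam1 rose (0.95 and 0.45). F3, tissue factor, the membrane protein that starts clotting outside vessels, rose 1.62-fold, from 95.5, 119.9 and 95.7 to 146.6, 145.9 and 212.2 normalized counts (limma, adjusted p = 0.01), and was not called after quantile normalization (log2 fold change 0.32).

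Fibrinogen was the most abundant product of the set. Its 3 chains, encoded side by side on chromosome 3 (Fgg at chr3:83007724-83015049, Fga at chr3:83026076-83033627 and Fgb at chr3:83040141-83049863), were the 3 most abundant of the 35 genes per kilobase in both genotypes. Fga, the alpha chain, stood at 93218, 96631 and 99600 normalized counts in WT and at 25044, 32727 and 20751 in Vps15LKO livers. Fgb, the beta chain, went from 90353, 88265 and 89948 to 26483, 34507 and 22467. Fgg, the gamma chain, went from 67670, 66663 and 69420 to 14903, 22182 and 12928. WT livers varied little, Vps15LKO livers varied more, and replicate 2 was the highest of them for each chain. The means fell 3.69-fold, 3.22-fold and 4.07-fold, with log2 fold changes of -1.91 ± 0.25, -1.71 ± 0.25 and -2.07 ± 0.24 (limma, adjusted p = 0.0002, 0.00033 and 9.7e-05). After quantile normalization the log2 fold changes were -0.53, -0.28 and -0.72, and Fgb was not called. Fgg shares 115 exonic bases with the opposite-strand model Gm30097, whose mean went from 24537 to 5782 normalized counts. The strand setting is not given, so reads in those bases could have been divided, and the counts, rank and ratio of Fgg carry that uncertainty. Together the chains took 1.12% ± 0.06 (SD, n = 3) of the reads in WT and 0.512% ± 0.088 in Vps15LKO livers, which does not depend on a size factor. All 35 genes together took 2.29% ± 0.06 and 1.28% ± 0.15 of the reads (two-sided exact permutation test, p = 0.1, the smallest that 3 livers against 3 allow).

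The transglutaminase that crosslinks fibrin is a pair of an enzyme and a carrier, and they moved apart. F13b, the carrier subunit made by hepatocytes, stood at 3922, 4289 and 3834 normalized counts in WT and at 1468, 1931 and 1106 in Vps15LKO livers (log2 fold change -1.45 ± 0.18, limma, adjusted p = 0.00015). F13a1, the enzyme subunit of macrophages and megakaryocytes, was near the limit of detection in WT, with 0, 11.2 and 12.1 normalized counts, and stood at 62.6, 47.0 and 62.9 in Vps15LKO livers. It reached 20 normalized counts in no WT liver, so it was tested only through the Vps15LKO livers. The log2 fold change of F13a1 was 3.42 ± 0.89 (limma, adjusted p = 0.0083), and it lay between 2.19 and 4.05 with any one liver left out, the lowest without WT replicate 1, which held 0 reads, and it was higher without WT replicate 2 or 3, the highest without WT replicate 3. Of the cells that usually make F13a1, macrophages had markers that rose as well: 8 of 10 macrophage markers were higher and 0 lower (9 and 1 after quantile normalization), with normalized counts summing to 7294 to 8726 per WT liver and 22610 to 26461 per Vps15LKO liver, led by Ccr2 and Cd68 (log2 fold changes 3.57 and 3.15). Among all tested genes 33.5% were higher and 33.0% lower on the authors' scale, and 31.2% and 37.0% after quantile normalization. The 8 platelet and megakaryocyte markers summed to 81.2 to 91.7 and 213.9 to 228.5, and without Pf4 to 70.3 to 84.9 and 113.8 to 126.6. Only 3 of them were tested, all called higher and led by Pf4 and Gp1bb (3.14 and 1.34). Among the others the means of Gp1ba and Gp9 went from 8.75 to 6.69 and from 2.21 to 1.56. Those of Ppbp and Treml1 went from 7.80 to 13.3 and from 0.83 to 2.21, and Gp6 was at 0 in every WT liver. Pf4 and Gp1bb reached 20 normalized counts in no WT liver and so were tested only through the Vps15LKO livers, and after quantile normalization 1 of the 3 was called. Their part in the result was not tested.

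Anticoagulant proteins of the cell surface were higher or not called. Procr, the endothelial receptor that presents protein C to thrombin, stood at 25.2, 13.7 and 16.2 normalized counts in WT and at 215.4, 178.3 and 198.0 in Vps15LKO livers. The mean was 10.7-fold higher (log2 fold change 3.40 ± 0.24, limma, adjusted p = 7.1e-06). Thbd, thrombomodulin, which turns thrombin into an activator of protein C, rose 3.24-fold, from 106.1, 79.9 and 79.5 to 258.9, 287.7 and 314.0 (limma, adjusted p = 2.6e-05). So the receptor and the cofactor rose while Proc, the protein C that both help to activate, fell, each without overlap between genotypes. Tfpi, the inhibitor of tissue factor, stood at 197.6, 228.6 and 229.2 in WT and at 247.4, 271.5 and 241.2 in Vps15LKO livers. The groups did not overlap, but the log2 fold change of 0.21 ± 0.11 did not pass the test (limma, adjusted p = 0.13), and with total-read scaling it was 0.94 and passed.

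In the plasminogen system the zymogen fell and its activators rose. Plg, plasminogen, stood at 58875, 58956 and 53901 normalized counts in WT and at 16550, 20811 and 12931 in Vps15LKO livers (log2 fold change -1.80 ± 0.22, limma, adjusted p = 0.00013). It shares 420 exonic bases with Slc22a3 on the opposite strand, whose mean went from 7455 to 2290. The strand setting is not given, so reads in those bases could have been divided between Plg and Slc22a3. Plat, the activator tPA, was detected at 2.65, 13.7 and 14.8 in WT and at 592.6, 409.2 and 771.6 in Vps15LKO livers, a 56.8-fold higher mean (log2 fold change 5.92 ± 0.53, limma, adjusted p = 2.4e-05). Without WT replicate 1, which held 2 reads, the log2 fold change of Plat was 5.23. Plau, the activator uPA, rose 7.31-fold, from 31.8, 17.5 and 27.0 to 175.6, 153.2 and 228.5. Plaur, the receptor that holds uPA at the cell surface, rose 34.9-fold, from 7.96, 12.5 and 16.2 to 435.3, 355.7 and 486.6 (log2 fold change 5.05 ± 0.25, limma, adjusted p = 1.5e-06). These transcripts were scarce in WT liver, and the smallest Vps15LKO value of each was several times the largest WT value. Plat and Plaur reached 20 normalized counts in no WT liver, so they were tested only through the Vps15LKO livers.

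The hepatocyte proteins that modulate plasmin differed from each other. Hrg, histidine-rich glycoprotein, which binds plasminogen and heparin, fell 3.46-fold, from 31449, 32387 and 29035 to 9511, 10688 and 6646 normalized counts (log2 fold change -1.82 ± 0.20, limma, adjusted p = 6.8e-05). Cpb2, the carboxypeptidase TAFI, which removes the plasminogen-binding lysines from fibrin, stood at 8287, 7582 and 8914 in WT and at 8763, 7688 and 7787 in Vps15LKO livers. Both groups covered the same range, and the log2 fold change was -0.03 ± 0.12 (limma, adjusted p = 0.83). Cpb2 was called higher with total-read scaling (0.69) and after quantile normalization (0.94). In normalized counts per kilobase it ranked 9 among the 35 genes in WT and 5 in Vps15LKO livers, where it lay at 4960 beside 4517 for Plg and 4488 for Hrg. In WT livers Plg and Hrg lay at 15426 and 15525, against 5071 for Cpb2.

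Receptors that clotting proteases cleave were higher. F2r, the thrombin receptor PAR1, stood at 770, 879 and 976 normalized counts in WT and at 1706, 1649 and 2020 in Vps15LKO livers (log2 fold change 1.03 ± 0.12, limma, adjusted p = 9.9e-05). F2rl1, PAR2, which trypsin-like proteases and factor Xa cleave, was almost absent from WT liver, with 4 reads over the 3 livers against 1271 in Vps15LKO livers. After the size factors this is a ratio of 184, with an exact 95% interval of 71.8 to 678 that covers counting error only. Its normalized counts were 2.65, 1.25 and 1.35 in WT and 334.5, 266.6 and 356.5 in Vps15LKO livers, and it moved from last to rank 26 of the 35 genes per kilobase. F2rl2 and F2rl3, the other members of the family, did not pass the filter.

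**Figure D3:**
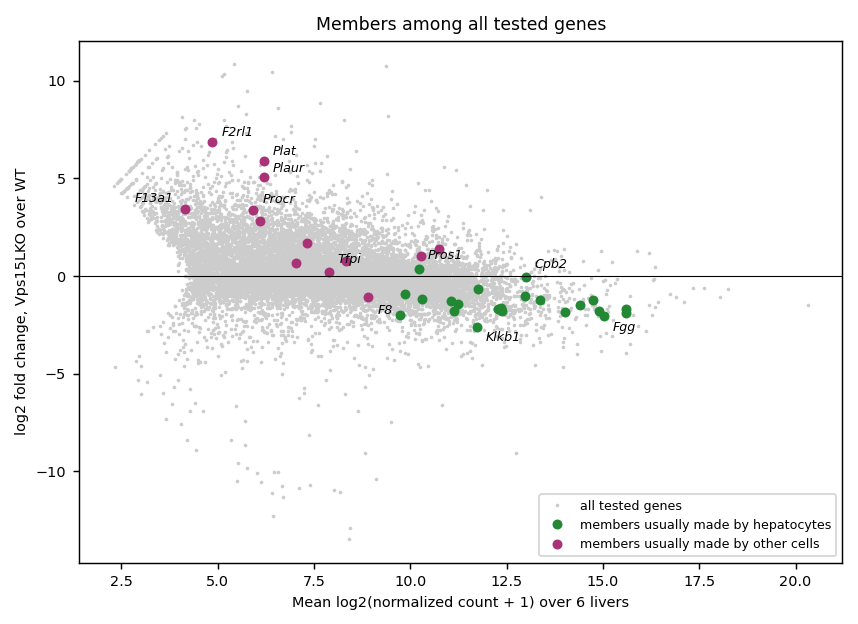
Log2 fold change, Vps15LKO over WT, against the mean log2(normalized count + 1) over the 6 livers, for all 15430 tested genes (grey) and for the 35 genes, coloured by the cell that usually makes the product. Hepatocyte genes lie at the high end of expression and mostly below 0, the other genes lie lower and mostly above 0, with Pros1 and F8 as the exceptions; with total-read scaling Cpb2 and Kng2 lie above 0, and after quantile normalization Cpb2 and Kng1 do.

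The lowest genes of the set passed the filter only through the Vps15LKO livers. F13a1, Plat, Plaur and F2rl1 reached 20 normalized counts in all 3 Vps15LKO livers and in no WT liver, while Procr did so in 1 WT liver and Plau in 2. The same held for A2m, Tyro3, Prrg4 and Cldn7 among the pathway and marker genes described below, none of which reached 20 in a WT liver. When at least 20 were asked of every liver, 29 of the 35 genes were left, 21 lower and 6 higher, beside 36.2% and 27.9% of the 13101 genes then tested.

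Ratios of 2 abundant transcripts within a liver do not depend on the size factor, and 8 pairs were compared. For a transcript with few reads, such as F13a1, the added count of 1 and the size factor enter the ratio. Thrombin and its main inhibitor fell together: the log2 ratio F2/Serpinc1 was -0.34 ± 0.05 (SD, n = 3) in WT and -0.30 ± 0.03 in Vps15LKO livers, with overlap (exact permutation p = 0.3). Plg fell more than its inhibitor Serpinf2, with log2 ratios of 1.32 ± 0.05 and 0.78 ± 0.09, and more than Cpb2, with 2.79 ± 0.18 and 1.03 ± 0.37.
Within fibrinogen, the chains did not fall in proportion: log2 Fga/Fgb went from 0.11 ± 0.05 to -0.09 ± 0.02, and Fgg/Fgb from -0.40 ± 0.02 to -0.75 ± 0.10. Kng1/Kng2 went from 3.28 ± 0.10 to 2.72 ± 0.19. Receptor over ligand, Procr/Proc, changed by 5.03 on the log2 scale, and enzyme over carrier, F13a1/F13b, by 4.87. The latter was 3.45 with a pseudocount of 10, 3.66 without WT replicate 1 and 5.54 without WT replicate 3. The livers did not overlap for 7 of the 8 pairs, each with an exact two-sided permutation p of 0.1, the smallest this design allows (0.114 after Benjamini-Hochberg adjustment over the 8 pairs), so none could pass 0.05.

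**Figure D4:**
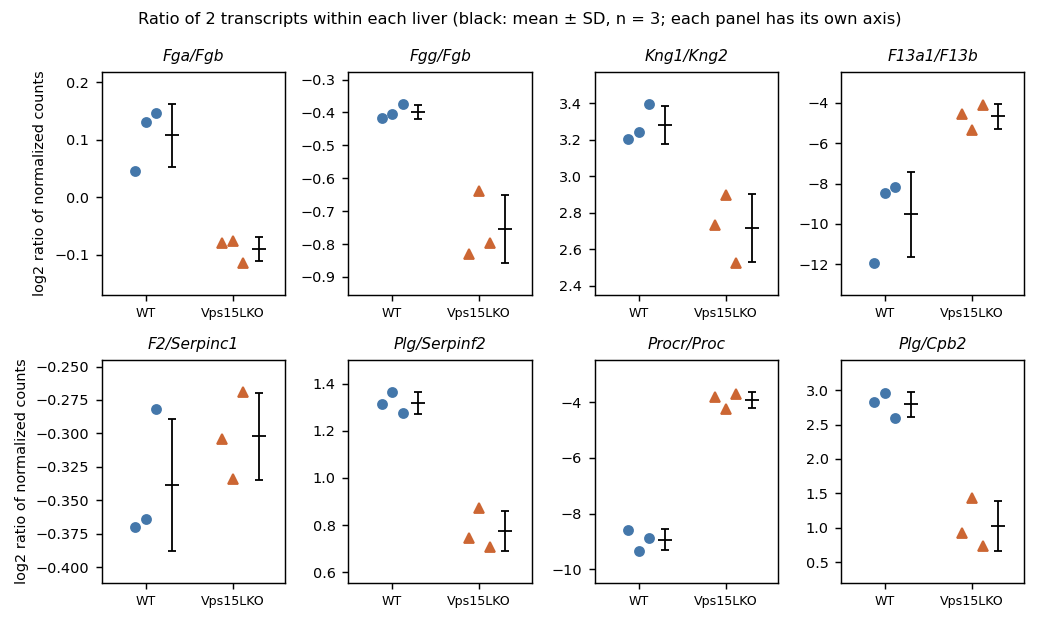
Log2 ratio of the normalized counts (+ 1) of 2 transcripts within each liver, for 8 pairs, each panel with its own vertical axis. Circles are WT and triangles Vps15LKO livers, and black bars are the mean ± SD (n = 3); the genotypes overlap for F2/Serpinc1 and do not for the other 7 pairs.

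Other genes of the pathway, from lists of inhibitors, clearance, surface binding and receptors, moved in both directions. Beside the counts that follow, 33.0% of all tested genes were lower and 33.5% higher on the authors' scale. With total-read scaling the shares were 11.1% and 66.7%, and after quantile normalization 37.0% and 31.2%. Of the serpins and related inhibitors, 7 of 8 were tested, of which 5 were lower and 2 higher, but after quantile normalization 1 was lower and 2 higher, with a list median of 0.02. Serpind1, heparin cofactor II, and Serpinc1, antithrombin, fell most (log2 fold changes -1.65 and -1.50, limma, adjusted p = 5.1e-05 and 0.00044), and Serpinf2, the plasmin inhibitor, fell by 1.26 on the log2 scale. Serpinc1 and Serpinf2 were not called after quantile normalization (-0.23 and -0.11). A2m, a broad protease trap, and Serpine2, a thrombin inhibitor of the cell surface, were the 2 that rose (3.65 and 2.48, limma, adjusted p = 0.0006 and 0.00011). Serpine2 stood at 110.1, 89.9 and 47.2 normalized counts in WT and at 375.7, 410.8 and 545.3 in Vps15LKO livers. All 8 genes of secretion and clearance of clotting factors were lower, most of all the hepatocyte asialoglycoprotein receptor subunits Asgr2 and Asgr1 (-1.60 and -1.29), though with total-read scaling 3 of these 8 were lower and 1 was higher. Of 6 tested genes of plasmin generation at the cell surface, 3 serine proteases of the hepatocyte were lower, led by Hgfac and Hpn (-1.35 and -1.09), and 3 proteins that hold plasminogen or tPA at the membrane were higher, led by Anxa2 and Plgrkt (4.37 and 1.39). With total-read scaling 2 of these 6 were lower and 3 higher, and the same counts were found after quantile normalization. Anxa2 went from 153.8, 158.6 and 167.2 to 3329, 3001 and 3686 normalized counts. All 6 tested receptors of Gas6 or of fibrinogen were higher, led by Tyro3 and Itgam (3.13 and 2.51), and Axl, a receptor of Gas6 well above the filter in WT, rose by 2.10. Of 7 other Gla-domain and fibrinogen-like genes 5 were higher, led by Mgp and Prrg4 (4.44 and 3.79), and 2 lower, Prrg2 and Fgl1 (-0.76 and -0.34), though with total-read scaling Fgl1 was higher (0.39) and no gene of that list lower.

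Hepatocyte genes outside clotting mostly fell as well. The shares of all tested genes to set beside these counts were 33.0% lower and 33.5% higher on the authors' scale. They were 11.1% and 66.7% with total-read scaling, and 37.0% and 31.2% after quantile normalization. Of 10 hepatocyte transcription factors 8 were lower, led by Nr0b2 and Cebpa (log2 fold changes -2.22 and -1.94), with a list median of -0.96, and with total-read scaling 4 were lower and 1 higher. Of 10 hepatocyte markers 6 were lower and 0 higher, with a median of -1.61 beside the -1.55 of the 22 clotting genes, led by Apoa2 and Ttr (-2.56 and -1.98). Hpx, hemopexin, stood at 70012, 62125 and 79962 normalized counts in WT and at 99579, 103027 and 92872 in Vps15LKO livers, without overlap, and was not called (log2 fold change 0.48 ± 0.29, limma, adjusted p = 0.17). It was called higher with total-read scaling (1.21) and after quantile normalization (1.55). The log2 fold changes of Tf and Ahsg, transferrin and fetuin-A, which were not called, turned from -0.65 and -0.61 to 0.08 and 0.12 with total-read scaling and to 0.07 and 0.12 after quantile normalization. Alb took 9.63% ± 0.31 (SD, n = 3) of the reads in WT and 5.74% ± 0.87 in Vps15LKO livers, and its groups did not overlap, yet with an SE of 1.38 at that height of expression its log2 fold change of -1.48 was not called. Stellate cell and fibroblast markers were all higher (10 of 10), with sums of 7095 to 7597 and 30561 to 36135 normalized counts, led by Col1a1 and Col3a1 (4.39 and 3.58). Cholangiocyte markers were higher in 6 of 6 tested, with sums of 667 to 799 and 11526 to 22590, led by Spp1 and Cldn7 (4.69 and 4.21). Spp1 made up most of these sums, which without it were 171.0 to 200.9 and 1123 to 2094. The part of these cell types in the rise of the non-hepatocyte genes was not tested.

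The spread among the Vps15LKO livers was shared by the genes of a class. For 19 of the 22 hepatocyte genes the highest Vps15LKO liver was replicate 2 and the lowest replicate 3 (17 of 22 as a share of the reads), the same order as Alb. For 8 of the 13 other genes the highest was replicate 3 and the lowest replicate 2 (9 of 13 as a share of the reads). These genes share the library and its size factor, so the counts are a description. The targeted gene Pik3r4 stood at 507.8, 573.3 and 459.7 normalized counts in WT and at 340.6, 362.2 and 355.1 in Vps15LKO livers (log2 fold change -0.54 ± 0.11, limma, adjusted p = 0.0021), with a log2 fold change of 0.19 with total-read scaling. The values cover all exons, so the deleted part was not counted apart.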

How the data were processed

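Libraries of poly(A) RNA from whole liver were sequenced by the authors, who cleaned the reads (SOAPnuke), aligned them to GRCm38/mm10 (HISAT2), assigned them to genes (featureCounts) and normalized the result (DESeq2). Tool versions and the settings for strand and multi-mapping are not given in the sources used here. The deposited signal is a read count divided by 1 size factor per library, and 100% of values above 0 were whole reads (tolerance 0.01 of a read), so read counts could be recovered. Symbols, coordinates and merged exon lengths came from GENCODE M21 (GRCm38), which named 55141 of 56305 identifiers. Promoters came from RefSeq (GRCm38.p6).

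Genes that reached 20 normalized counts in 3 or more of the 6 livers were tested with limma 3.58.1 (lmFit, eBayes with a trend, R 4.3.3) on log2(normalized count + 1), a scale that understates changes of low genes. Folds are ratios of mean normalized counts. The methods name each animal as 1 replicate. The members and gene lists were chosen with earlier results of these data known. All members were named, and of each list the 2 largest rises and falls among called genes, the inhibitors of the ratio pairs, Alb and Pik3r4. Axl, Hpx, Tf, Ahsg, F2rl2, F2rl3, Gp1ba, Gp9, Gp6, Ppbp and Treml1 fall outside this rule and were named after their values were seen. Some genes of the lists and pairs first chosen are not reported here. Ratios were compared by two-sided exact permutation tests (scipy 1.17.1). The procedure was first tested on simulated counts. Alternatives were other pseudocounts (0.1 and 10), filters, scalings and thresholds, a limma fit with no trend, and on recovered reads DESeq2 1.42.0, limma voom and edgeR 4.0.16, a replicate block and each liver left out. Intervals cover counting error only.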

Additional observations from a re-analysis of the deposited data

How the results depend on the processing

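The counts of the 35 genes called were recomputed under 22 alternative settings and the 8 ratios under 7 (a pseudocount of 10 and each liver left out), in which the ratios kept their sign, and 98 of these values stayed within 1.5 times the count or within 1 SD of the ratio, while 2 did not. Asking for at least 20 normalized counts in every liver left 6 genes higher in place of 12, because fewer genes were tested, and a pseudocount of 10 gave 4.52 for the log2 change of Procr/Proc in place of 5.03. For single genes, 644 values kept their direction and side of the threshold, 7 kept their direction but were no longer called, 1 kept its direction and was newly called (Tfpi, 0.94 with total-read scaling) and 7 changed sign. Those 7 were Kng1 after quantile normalization (0.05), Kng2 with total-read scaling (0.0661), and Cpb2 with total-read scaling (0.69), with TMM (0.01), after quantile normalization (0.94) and without WT replicate 3 or Vps15LKO replicate 2 (0.0249 and 0.003). Of these, Kng1 and Kng2 were then not called, and Cpb2 was called higher with total-read scaling and after quantile normalization only. The genes that lost their call with the same sign were F2, F12, Kng2, F5, F3 and Fgb after quantile normalization and Ggcx with total-read scaling, and the cause was not tested. With any one liver left out, Cpb2 lay between -0.0918 and 0.0249.

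Same-numbered WT and Vps15LKO livers did not deviate together (correlations -0.00992, -0.0114 and 0.0485), and the replicate numbers were not used as pairs in the main test. With 3 livers per genotype, these correlations cannot show whether same-numbered livers shared a litter or a batch. With a replicate block 21 of the 35 genes were lower and 12 higher, as without it, and 4983 and 5065 of all genes. On the recovered reads edgeR called 5150 genes lower and 5170 higher, among them 21 and 12 of the 35. With 3 livers per genotype the exact tests cannot go below 0.1, and transcripts with a few reads in WT livers, such as F2rl1, have wide counting intervals.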
